A study of Mus musculus with 11 samples.

Results

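Type IV collagen is the sheet-forming collagen of the vascular basement membrane, on which endothelial cells rest. In blood vessels it is built mainly from the chains encoded by *Col4a1* and *Col4a2*, which lie head to head on one chromosome. The chains are hydroxylated, folded and exported from the endoplasmic reticulum as trimers, and the network is cross-linked outside the cell. The genes described here are these 2 chains and 8 genes of their assembly. *Serpinh1* encodes the collagen chaperone of the endoplasmic reticulum. *P4ha1* and *P4hb* encode the catalytic and the partner subunit of prolyl hydroxylase, and the *P4hb* product is also a protein disulfide isomerase. *Plod1* and *Plod3* encode lysyl hydroxylases, of which the *Plod3* product also adds sugars to hydroxylysine. *Mia3* encodes a receptor that loads collagen into export carriers. *Pxdn* encodes peroxidasin, which forms the sulfilimine cross-links of type IV collagen, and *Loxl2* encodes a lysyl oxidase. Members were taken from the table by Entrez gene identifier, without a threshold on their values, but the list was drawn up with earlier results of these libraries known. All 10 were found among the 27179 rows of the count table, and all 10 passed the filter on low counts.

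RNA was sequenced from CD31hi EMCNhi endothelial cells, a gate set by 2 surface proteins, sorted from the bone marrow of BALB/c mice aged 8 to 10 weeks. The 2 control libraries came from pools of healthy mice. The other 9 came from tumour-burdened mice, for which the study used mammary tumour cells of the 4T1.2 line marked with red fluorescent protein. Their marrow was dissected by fluorescence into tumour-infiltrated (met, 3 libraries) and adjacent tumour-free (non-met, 6 libraries) areas. Libraries were made from pools, which for the burdened animals held 1 to 4 mice by the paper. The labels name pools only, so that single mice cannot be separated. The burdened animals formed 4 pools, and met 1, 2 and 3 share their animals with non-met libraries of pools 2, 3 and 4. Non-met 1 and 5 are both from pool 1, and non-met 2 and 6 are both from pool 2. The p-values below therefore measure the spread between libraries, which is not always a spread between animals.

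Total counts were 5029771 and 19539761 in the control libraries. They ran from 2547520 to 8771860 in met, and from 733342 to 7683451 in non-met. The markers used for the sort were present throughout, with *Pecam1* at 972 to 3162 CPM (counts scaled to the TMM-normalised library total) and *Emcn* at 351 to 1361 CPM. *Ptprc*, the leukocyte gene whose product the sort excluded, had no read in 9 of the 11 libraries and 12.5 and 38.9 CPM in control 1 and met 2. The summed level of 11 granulocyte genes was highest in non-met (397 to 5119 CPM), with 80.2 to 359 CPM in control and 35.5 to 204 CPM in met. Of the 11 genes, 5 had no read in met, 3 had none in control and 0 had none in non-met. The summed level of 19 stromal genes was highest in control (4365 to 11140 CPM), followed by non-met (1460 to 5046 CPM) and met (697 to 3466 CPM). *Bglap* had no read in any group, and *Dcn* and *Sp7* had none in met. *Krt8* and *Krt18*, keratin genes of epithelial cells, summed to 6.69 to 52.2 CPM in 7 libraries (all of met and non-met 3, 4, 5 and 6) and to 0.47 to 2.96 CPM in the other 4, which include both controls. In such bulk samples fewer cells of a type and less RNA per cell cannot be told apart. The mean of 20 general endothelial genes was 9.86 ± 0.14 log2 CPM (SD, n = 3) in met, 9.37 ± 0.52 (n = 6) in non-met and 9.38 ± 0.45 (n = 2) in control. Met exceeded non-met by 0.49 in this mean (two-sided exact permutation test, p = 0.143). Each member is therefore also given relative to those endothelial genes.

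The 2 chain genes overlap at their starts. On build GRCm38.p6, RefSeq places *Col4a1* (Entrez 12826) on the minus strand at chr8:11198423-11312889 and *Col4a2* (Entrez 12827) on the plus strand at chr8:11312805-11449287. In GENCODE vM21 the first exon of *Col4a1* (chr8:11312516-11312826) and that of *Col4a2* (chr8:11312805-11313114) share 22 bases, at the start of both transcripts. These 22 bases are fewer than the RefSeq spans share. They are shown because both genes are read outward from this point. The shared bases are given from RefSeq windows of GRCm38.p6, chr8:11312805-11312826, 5′ to 3′ on each gene's own strand, with the GC box (GGGCGG, or CCGCCC on the other strand) in capitals.
*Col4a2* strand: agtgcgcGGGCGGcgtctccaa
*Col4a1* strand: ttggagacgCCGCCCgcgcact
RefSeq start windows (250 bases before to 50 bases after the start) were matched for 9 of the 10 members. A GC box stood in 8 of these 9 windows and in 35.7% of all 32851 windows. A CCAAT box (CCAAT or ATTGG) stood in 6 of the 9 and in 37.4% of all windows. The *Col4a1* and *Col4a2* windows held 1 and 3 GC boxes and 74.0% and 73.7% G plus C, against a median of 52.7% over all windows. The 1 GC box of *Col4a1* lies in the shared bases and is also 1 of the 3 of *Col4a2*. That site is therefore counted in 2 of the 8 windows. These are matches of letters only, and no binding was measured. The files give counts per whole gene, over counted lengths of 6615 and 6426 bases, and strand was not stated.

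*Col4a1* and *Col4a2* were among the most abundant transcripts of these cells and were highest in met. *Col4a1* was at 5012 and 2220 CPM in control 1 and 2. In non-met it ranged from 4225 to 8331 CPM with a median of 5484. In met 1, 2 and 3 it was at 8294, 9929 and 12260 CPM. Met and non-met overlapped by a single pair of libraries, non-met 3 (8331 CPM) lying just above met 1 (8294 CPM), and met lay wholly above control. *Col4a2* was at 3044 and 1190 CPM in control, at 2888 to 5872 CPM in non-met with a median of 3613, and at 5139, 7379 and 9001 CPM in met. Again only non-met 3 (5872 CPM) stood above the lowest met library. Ranked by count among nuclear genes within a library, *Col4a1* was 1st in all 3 met libraries and in non-met 2, 3, 5 and 6, and 2nd in non-met 1 and 4. *Col4a2* was 2nd in all 3 met libraries and between 3rd and 6th in non-met. In control they were 2nd and 9th in library 1 and 11th and 35th in library 2. Shares were taken of the counts kept after unnamed, ribosomal RNA and predicted-gene rows were left out. Together the chains took 1.24%, 1.72% and 2.18% of these in met, 0.713% to 1.19% in non-met and 0.86% and 0.395% in control. The rows left out had held 2.91% to 3.46% of counts in met, 3.38% to 15.7% in non-met and 1.94% to 2.87% in control.

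**Figure D1:**
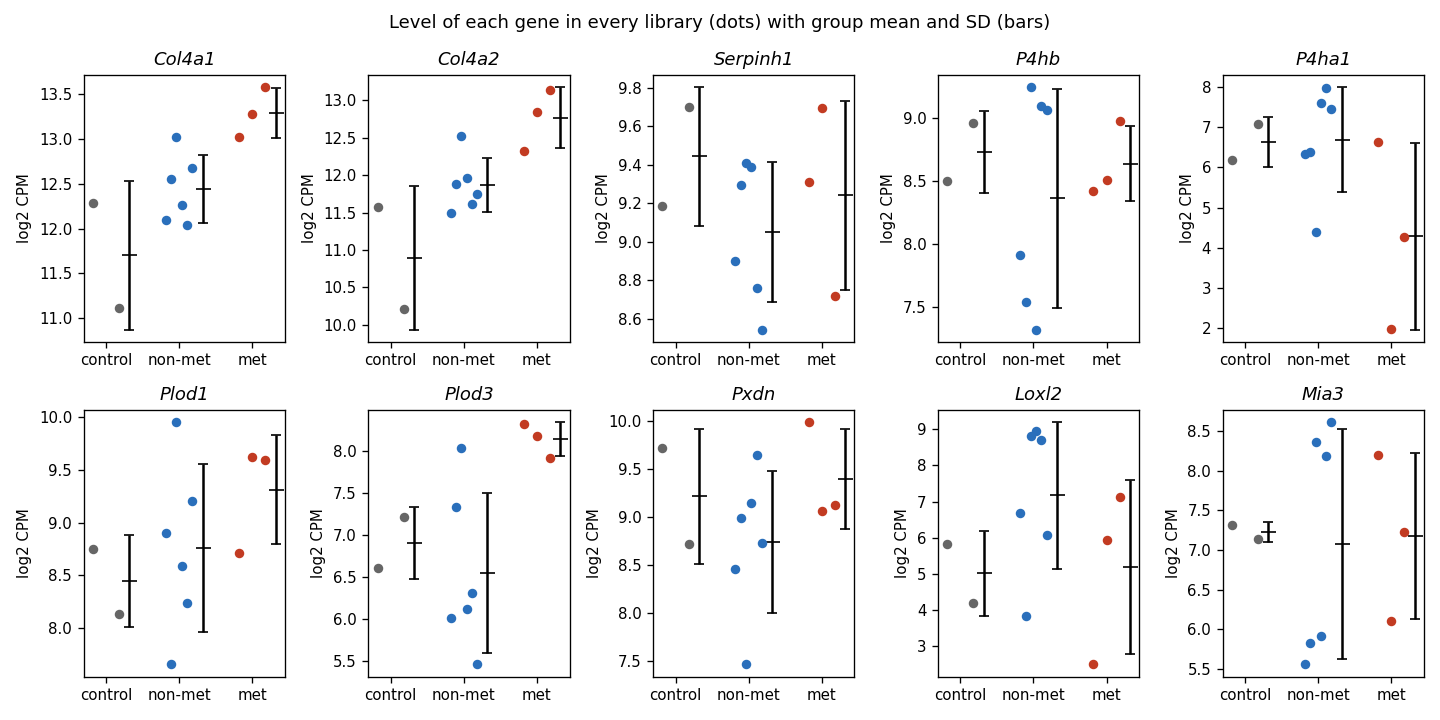
Level of each of the 10 genes (vertical axis, log2 CPM, a separate scale for each gene) in every library of control (grey, n = 2), non-met (blue, n = 6) and met (red, n = 3), with bars for the group mean and SD. The met libraries of *Col4a1* and *Col4a2* lie above all but 1 non-met library, while most other genes overlap widely between groups.

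On the log2 CPM scale *Col4a1* averaged 13.29 ± 0.28 (SD, n = 3) in met and 12.44 ± 0.38 (n = 6) in non-met, a difference of 0.85 or 1.80-fold (two-sided exact permutation test over the 84 splits, p = 0.0357). *Col4a2* averaged 12.77 ± 0.41 in met and 11.87 ± 0.36 in non-met, a difference of 0.90 or 1.87-fold (exact p = 0.0238). The smallest p this design allows is 0.0119. These were the only 2 of the 10 members that rose at an exact p below 0.05, and none fell. Of all 11949 genes tested, 2.34% rose by the same rule, and none of these p-values was adjusted for the number of genes. With the libraries of one pool averaged, so that non-met had 4 values, the differences were 0.80 and 0.81 (exact p = 0.0857 for both, where 0.0286 is the smallest possible). Relative to the 20 endothelial genes the differences were 0.36 for *Col4a1* (exact p = 0.143) and 0.41 for *Col4a2* (exact p = 0.167) and neither passed the test. The granulocyte sum was lower in every met library than in every non-met library, as given above, and its part in these differences was not tested. Without met 3 the differences were 0.70 (exact p = 0.107) and 0.72 (exact p = 0.0714). No member had all met libraries above all non-met libraries, as 1.54% of all genes did.

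Within pools, where met and non-met came from the same animals, both chains were higher in met in all 3 pools. *Col4a1* was higher by 0.40 in pool 2, 0.25 in pool 3 and 1.31 in pool 4 on the log2 scale. *Col4a2* was higher by 0.51, 0.33 and 1.17 in the same pools. The largest difference was in pool 4, whose non-met library is the shallowest of all. From its 2726 reads of *Col4a1* the 95% Poisson interval was 4750 to 5120 CPM. It covers counting error only, not error of the low-input library preparation. Relative to the endothelial genes the same pools gave 0.21, 0.25 and 0.90 for *Col4a1* and 0.32, 0.33 and 0.76 for *Col4a2*. An exact sign test over 3 pools cannot pass, so these are given as values. For scale, 2 non-met libraries of one pool differed by 0.049 (pool 1) and 0.12 (pool 2) for *Col4a1*, and by 0.11 and 0.13 for *Col4a2*. The median gene differed by 1.45 and 1.80 in the same pairs.

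**Figure D2:**
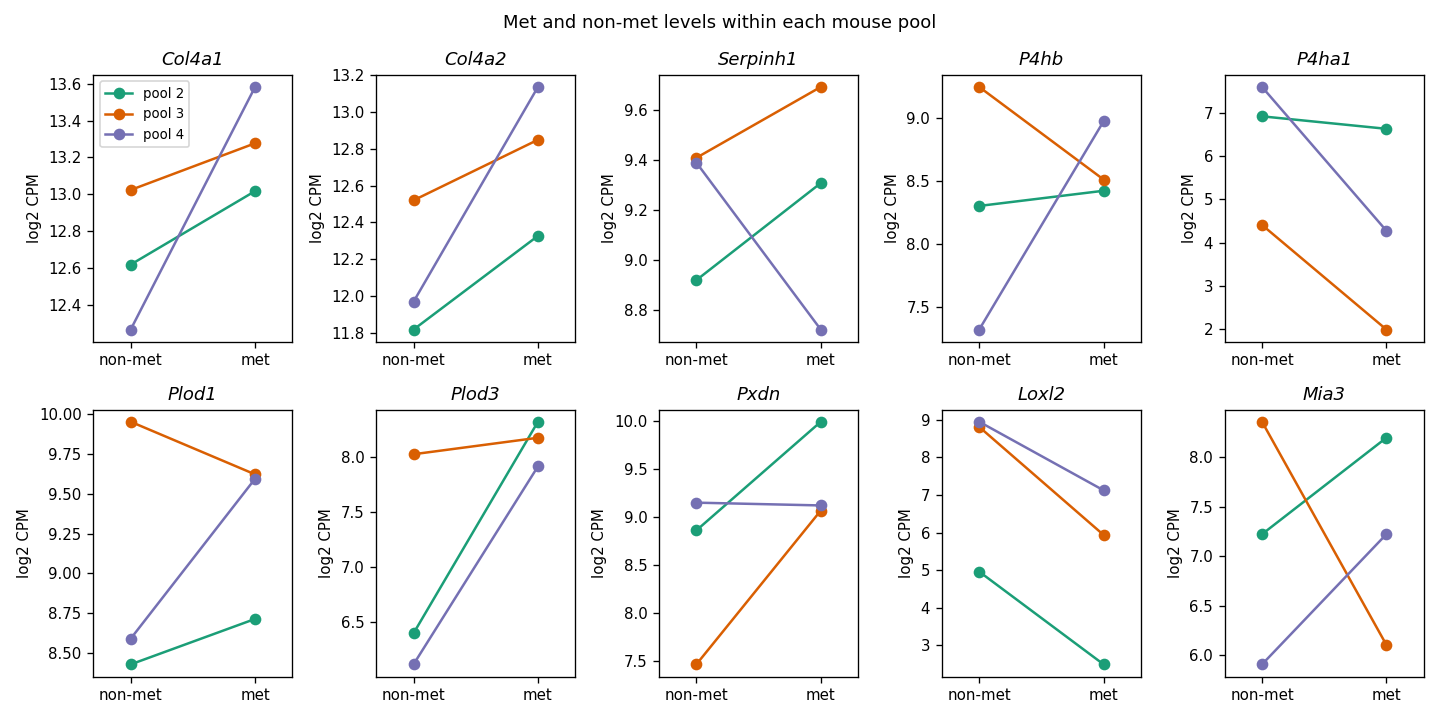
Log2 CPM (vertical axis, a separate scale for each gene) in non-met (mean of the pool's libraries) and met for pools 2, 3 and 4, joined by a line for each pool. *Col4a1*, *Col4a2* and *Plod3* are higher and *P4ha1* and *Loxl2* lower in met in all 3 pools, while the other 5 genes differ in direction between pools.

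The weighted linear model named in the study's methods (voomLmFit with sample weights, Benjamini-Hochberg adjusted p over 11949 genes) called *Col4a1* and *Col4a2* higher in met than non-met. Its log2 fold changes were 0.81 ± 0.07 (SE, adjusted p = 6.65e-08) and 0.90 ± 0.17 (adjusted p = 0.0115). It called 2 of the 10 members, 6 of the 20 general endothelial genes (all 6 higher in met) and 0.418% of all genes. The weights in this fit lay mostly on single libraries. For *Col4a1*, met 1 held 99.8% of the weight of its group and non-met 1 held 85.4%. For *Col4a2*, non-met 2 held nearly all of it and met 2 held 84.7%. The fitted changes and their standard errors thus rest largely on 1 library against another, and the SE of 0.07 for *Col4a1* stands beside SDs of 0.28 and 0.38 within the groups. Over the alternatives tried the fitted change of *Col4a1* ran from -0.021 to 1.22, with adjusted p from 1.04e-49 to 0.999, and that of *Col4a2* from 0.39 to 1.31, with adjusted p from 5.61e-25 to 0.926. The unweighted difference ran from 0.36 to 0.98 for *Col4a1* and from 0.41 to 1.12 for *Col4a2*. Among fits without these weights, edgeR's quasi-likelihood test called both chains (adjusted p = 0.0196 and 0.0312), whereas neither chain was called by DESeq2 (0.215 and 0.192, both adjusted p) or by limma-trend (0.125 and 0.259). When met 3 was left out, voomLmFit called no member, and without non-met 3, 5 or 6, met 1 or 2 or either control it called only one chain. Both calls also ended with a term for the *Krt8* and *Krt18* library sets (0.061 for *Col4a1* and 0.45 for *Col4a2*) and in the 7 libraries with these keratins alone (0.61 and 0.75). In those 7 libraries the unweighted differences were 0.79 and 0.81 (exact p = 0.0857 for both).

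**Figure D3:**
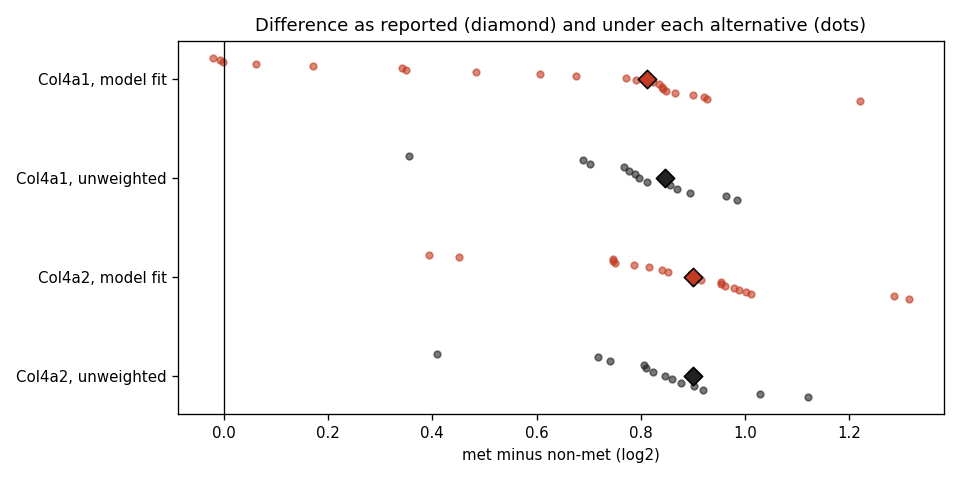
Met minus non-met (horizontal axis, log2) for *Col4a1* and *Col4a2* from model fits (red) and from unweighted group means (black), as reported (diamonds, the red one from voomLmFit with sample weights) and under each alternative (dots, which include other fits and left-out libraries). The unweighted values of *Col4a1* lie between 0.36 and 0.98, and the fitted ones spread from -0.021 to 1.22.

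Against control the chains differed more. *Col4a1* was 1.59 higher in met on the log2 scale (3.01-fold, control 11.70 ± 0.83, n = 2) and *Col4a2* was 1.88 higher (3.67-fold, control 10.89 ± 0.96). Both gave an exact permutation p of 0.1, the smallest that 3 against 2 libraries allow. All met libraries lay above both controls for *Col4a1*, *Col4a2* and *Plod3*, that is 3 of 10 members. The same held for 7 of the 20 general endothelial genes and 8.43% of all genes. voomLmFit called 6 of the 20 general endothelial genes higher and 1 lower in met than control. It called 2 members, *Col4a1* (log2 fold change 1.81 ± 0.36, adjusted p = 0.00607) and *Col4a2* (1.21 ± 0.18, adjusted p = 0.000246), and 1.2% of all genes. The 3 other count and log-scale tests called both as well, with adjusted p from 0.000176 to 0.00299. *Col4a2* was not called without sample weights or without the low-count filter. Both calls ended in voomLmFit with RLE size factors (1.74 and 1.20, adjusted p = 0.0845 and 0.12) and with a term for the *Krt8* and *Krt18* library sets (0.68 and 0.71, adjusted p = 0.94 and 0.422). Every met library belongs to the set with these keratins and both controls to the other, and the stromal sum was lower in every met library than in either control. The part of these in the chain differences was not tested. voomLmFit called neither chain without control 2 and neither without met 2, and only one of them without control 1, met 1, met 3 or non-met 3, 4, 5 or 6. Relative to the endothelial genes the differences were 1.11 and 1.40 (exact p = 0.1 for both). Control 2 was the lowest of all libraries for both chains, and without it the unweighted difference of *Col4a1* was 1.00 and that of *Col4a2* 1.20.

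Non-met exceeded control by 0.74 for *Col4a1* (1.67-fold, exact permutation p = 0.179) and by 0.98 for *Col4a2* (1.97-fold, exact p = 0.0714, where 0.0357 is the smallest possible). Control 1 lay within the non-met range for both chains and control 2 below it. The granulocyte sum was higher in every non-met library than in either control, with 11 of 11 genes higher, and the median difference of the 18 tested stromal genes was -1.004 log2, with 5 of 18 higher. Their part in the chain differences was not tested. voomLmFit called 1 member, *Col4a2* (log2 fold change 0.31 ± 0.06, adjusted p = 0.0067), and 0.636% of all genes. The fitted 0.31 is the difference of non-met 2 from control 1, which held nearly all of the weight of their groups (99.9% for control 1). edgeR's quasi-likelihood test, DESeq2 and limma-trend did not call it (adjusted p = 0.399, 0.137 and 0.145), and voomLmFit did not without non-met 2 or 3, met 3 or either control. Without control 2 the unweighted differences were 0.15 and 0.30. Relative to the endothelial genes they were 0.75 for *Col4a1* (exact p = 0.0714) and 0.99 for *Col4a2* (exact p = 0.0357), so that 1 of the 10 members passed here, and 0.695% of all genes. No member had all non-met libraries above both controls (1.26% of all genes) or all below (5.03%).

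**Figure D4:**
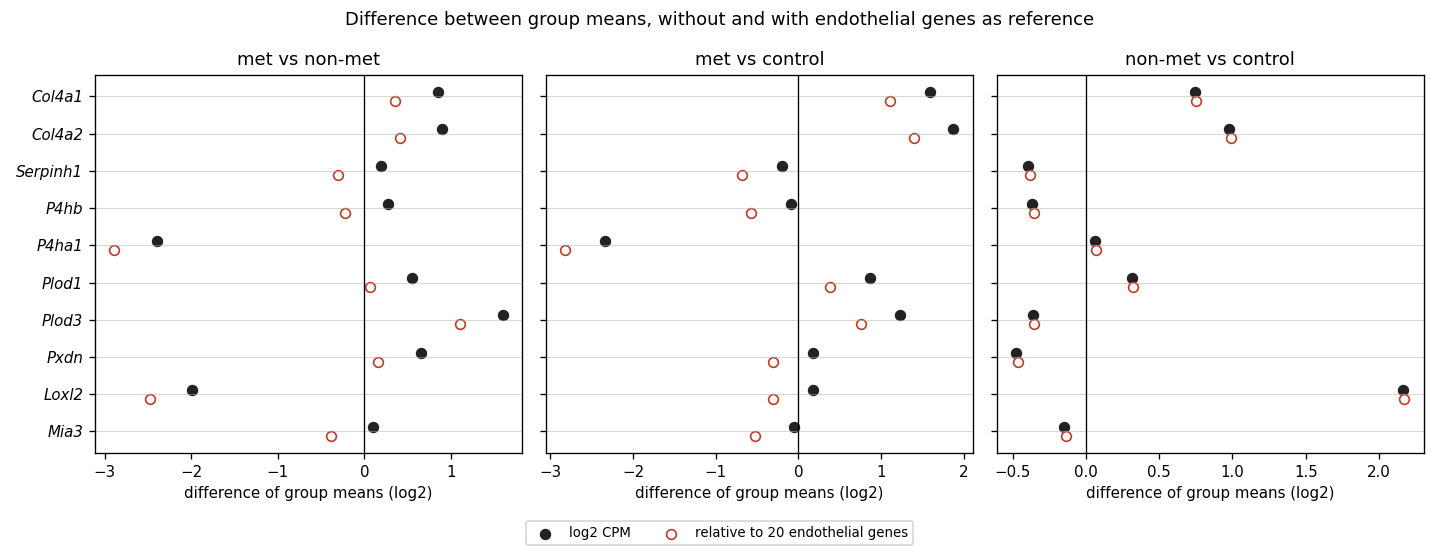
Difference of group means (horizontal axis, log2) for each gene in met against non-met, met against control and non-met against control, from log2 CPM (filled) and relative to 20 general endothelial genes (open). In met against non-met the *Col4a1* difference is 0.85 before and 0.36 after the endothelial genes are taken as reference.

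The 2 chains kept a narrow ratio. Per length (RPKM), *Col4a1* stood above *Col4a2* in 11 of 11 libraries. The ratio was 1.60 and 1.81 in control, 1.20 to 1.85 in non-met and 1.57, 1.31 and 1.32 in met. Its log2 averaged 0.48 ± 0.15 in met, 0.53 ± 0.22 in non-met and 0.77 ± 0.13 in control. The differences were -0.052 between met and non-met (exact permutation p = 0.762), -0.29 between met and control (exact p = 0.2) and -0.24 between non-met and control (exact p = 0.214). Across the 11 libraries the log2 CPM of the chains gave Pearson's r = 0.97 (permutation p = 1e-05, the smallest that 100000 permutations can give) and Spearman's rho = 0.90 (p = 0.00042). Without control 2 and met 3, the 2 libraries farthest from the median, r was 0.92, and within the 6 non-met libraries it was 0.83. This was the only pair tested. Of 9522 genes with a mean of at least 10 CPM, *Col4a2* was the one whose pattern was most like that of *Col4a1*. The next were *Mcam* (r = 0.92), *Col18a1* (0.92), *Plpp1* (0.92) and *Cd34* (0.91). *Mcam* and *Cd34* encode surface proteins of endothelium, and *Col18a1* encodes another basement membrane collagen. No assembly gene reached these values: *Plod1* gave r = 0.67, *Plod3* 0.52, *Mia3* 0.14, *P4hb* 0.12, *Loxl2* 0.065, *Pxdn* -0.006, *Serpinh1* -0.18 and *P4ha1* -0.66. By likeness to *Col4a1* among the 9522 genes, *Plod1* ranked 209, *Plod3* 647 and *P4ha1* 9453.

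**Figure D5:**
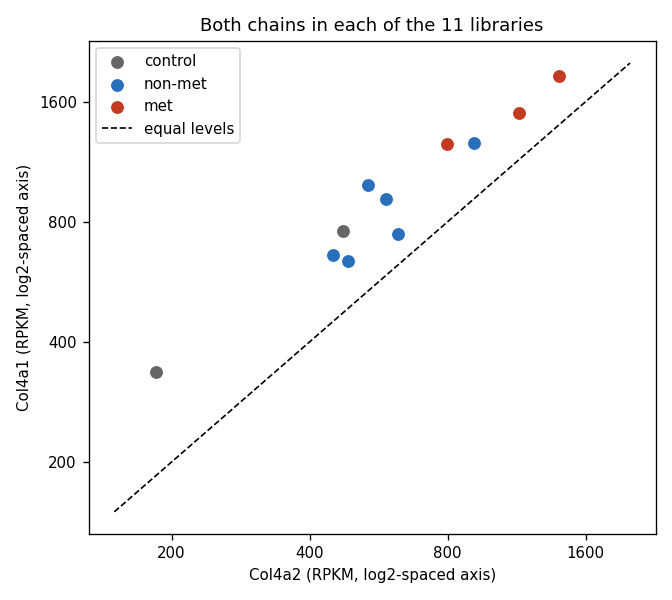
*Col4a1* against *Col4a2* (RPKM, both axes log2-spaced) in the 11 libraries of control (grey), non-met (blue) and met (red), with a dashed line of equal levels. All 11 points lie above the line, at ratios of 1.20 to 1.85, and met libraries take the upper right.

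Per length, the median over the 11 libraries ordered the members as *Col4a1* (913 RPKM), *Col4a2* (588), *Serpinh1* (257), *P4hb* (144), *Plod1* (133), *Pxdn* (81.1), *Plod3* (44.96), *Mia3* (22.4), *P4ha1* (20.5) and *Loxl2* (13.0). The top of this order was steady, with *Col4a2* above *Serpinh1* in 10 of 11 libraries. Lower neighbours changed places: *P4hb* exceeded *Plod1* in 6 of 11 libraries, *Mia3* exceeded *P4ha1* in 6 and *P4ha1* exceeded *Loxl2* in 6.

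The chaperone gene *Serpinh1* (chr7:99345375-99353239) was the steadiest of the assembly genes. It was at 583 and 831 CPM in control, 373 to 680 CPM in non-met with a median of 553, and 634, 828 and 422 CPM in met. The groups overlapped in part. The highest control value (831 CPM) and the highest met value (828 CPM) lay above the whole non-met range. The lowest non-met value (373 CPM) lay below every met and control library. Met exceeded non-met by 0.19 log2 (exact permutation p = 0.536), and the sign turned relative to the endothelial genes (-0.30). Its RPKM ran from 153 to 340 over the 11 libraries. It was 0.20 lower in met than in control (exact p = 0.6) and 0.39 lower in non-met than in control (exact p = 0.25).

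Of the prolyl hydroxylase subunits, *P4hb* (chr11:120560298-120573253) was at 362 and 499 CPM in control, 159 to 609 CPM in non-met with a median of 389, and 343, 365 and 504 CPM in met. The met libraries lay inside the non-met range (difference 0.27, exact permutation p = 0.595). *P4ha1* (chr10:59323197-59373304) was at 72.8 and 134 CPM in control, at 20.8 to 252 CPM in non-met with a median of 129, and at 98.7, 3.60 and 18.9 CPM in met. Met 2 and 3 were lower than every other library, while met 1 lay among the rest. The low value of met 2 rests on 19 reads (95% Poisson interval 2.17 to 5.62 CPM). The met mean was 2.40 log2 below non-met (exact p = 0.0833) and 2.34 below control (exact p = 0.3), and *P4ha1* was lower in met in each pool, by 0.29, 2.42 and 3.33 in pools 2, 3 and 4. Its SD within met was 2.32 log2, and without met 1 it passed the exact test (-3.57, p = 0.0357), but voomLmFit did not call it (adjusted p = 0.762 for met against non-met).

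Of the lysyl hydroxylases, *Plod3* (chr5:136987019-136996646) was at 96.7 and 147 CPM in control, at 43.5 to 260 CPM in non-met with a median of 73.9, and at 319, 289 and 241 CPM in met. Met lay above both controls and above all non-met libraries but non-met 3. The met mean was 1.60 log2 above non-met (3.02-fold, exact permutation p = 0.0595) and 1.23 above control (2.35-fold, exact p = 0.1). Relative to the endothelial genes the difference from non-met was 1.10 (exact p = 0.0476). It was then the only one of the 10 members to rise at an exact p below 0.05, as 1.43% of all genes did. Without that reference it passed in 3 other alternatives, with RLE scaling (exact p = 0.0476), without met 3 (0.0357) and without non-met 3 (0.0179). It did not pass in the remaining 9 of 13, with exact p up to 0.143 and with 1.47 (p = 0.0857) when pools were averaged. *Plod3* was higher in met by 1.93 in pool 2, 0.15 in pool 3 and 1.80 in pool 4. voomLmFit did not call it (1.31 ± 0.67, adjusted p = 0.728), and the RefSeq gene overlaps *Znhit1*. How reads of such an overlap were counted was not given in the sources used here. *Plod1* (chr4:147909753-147936776) was at 431 and 282 CPM in control, 202 to 989 CPM in non-met with a median of 432, and 420, 787 and 772 CPM in met. It was 0.55 log2 higher in met than non-met (exact p = 0.298) and 0.06 relative to the endothelial genes.

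Among the genes of export and cross-linking, *Pxdn* (chr12:29936642-30017658) was at 841 and 422 CPM in control, 177 to 803 CPM in non-met with a median of 467, and 1019, 537 and 557 CPM in met. Its groups overlapped (met above non-met by 0.65, exact permutation p = 0.214), and within pools it was higher by 1.13 and 1.60 in pools 2 and 3 and lower by 0.029 in pool 4. *Loxl2* (chr14:69608692-69695834) varied most, at 56.9 and 17.9 CPM in control, 13.9 to 492 CPM in non-met with a median of 258, and 5.29, 60.8 and 139 CPM in met. Non-met 3, 4 and 5 stood apart at 413 to 492 CPM, and the highest of the other libraries was met 3 at 139 CPM. *Loxl2* was lower in met in each pool, by 2.46, 2.87 and 1.82 log2, but the met mean of 5.18 ± 2.40 overlapped the non-met mean of 7.17 ± 2.03 (exact p = 0.274). Its lowest value, in met 1, rests on 12 reads (2.73 to 9.23 CPM). *Mia3* (chr1:183326236-183369565) was at 159 and 140 CPM in control, 46.7 to 392 CPM in non-met with a median of 175, and 294, 68.4 and 149 CPM in met (difference from non-met 0.10, exact p = 0.893, turning to -0.057 with RLE scaling). Non-met *Mia3* fell into 3 libraries at 46.7 to 59.7 CPM and 3 at 290 to 392 CPM, and non-met libraries of one pool differed by 2.62 and 2.78 log2.

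Within pools, 3 members (*Col4a1*, *Col4a2*, *Plod3*) were higher in met in all 3 pools and 2 (*P4ha1*, *Loxl2*) were lower, against 10.6% and 8.85% of all genes. Over the 10 members the median difference of met from non-met was 0.41 log2 and 8 were positive, where over all genes tested the median was 0.26 and 56.0% were positive. Relative to the endothelial genes the medians were -0.079 and -0.23. For met against control the members' median was 0.17 (6 of 10 positive) against -0.35 over all genes, and for non-met against control -0.044 (5 of 10) against -0.79. Among the 8 assembly genes, voomLmFit adjusted p-values lay between 0.328 and 0.974 for met against non-met, between 0.0955 and 0.906 for met against control and between 0.122 and 0.946 for non-met against control, so none was called in any comparison by this fit. *Plod1* was called for met against control in 5 of 20 alternatives, at log2 fold changes of 0.84 to 0.94, and *Pxdn* was called lower against control without control 2, in met (-0.52) and in non-met (-1.09).

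The other type IV chains were each found at more than 5 reads in 2 libraries at most. *Col4a3* had no read in any library, which allows up to 0.157 CPM in the deepest and 4.76 CPM in the shallowest at 3 reads. *Col4a4* had 223 reads in non-met 2 and 357 in non-met 5 and at most 1 elsewhere. DESeq2 called it in all 3 comparisons (adjusted p = 0.0493 for met against non-met, 0.00214 for met against control and 2.05e-10 for non-met against control), although met and control held at most 1 read of it, and no other test called it. *Col4a5* had 114 reads in control 1 and 101 in non-met 4 and at most 5 elsewhere. *Col4a6* had 64 reads in met 1 and 11 in non-met 6 and at most 1 elsewhere. No group held any of the 4 at more than 5 reads in all of its libraries.

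A wider list of 37 further genes of collagen maturation (other hydroxylases, glycosyltransferases, folding enzymes, export genes, lysyl oxidases and the chains just named) held 34 that were tested. voomLmFit called none of them for met against non-met (0.418% of all genes), 1 higher and 1 lower for met against control (1.2% of all genes in either direction), and 2 lower for non-met against control (0.636% in either direction). The one that was higher in met than control was *Pdia3*, which encodes a disulfide isomerase. It was at 608 and 854 CPM in control and at 885, 952 and 1142 CPM in met (fitted 0.83 ± 0.10, adjusted p = 1.10e-05, unweighted difference 0.45). edgeR's quasi-likelihood test, DESeq2 and limma-trend did not call it. The lower ones were lysyl oxidases. *Loxl1* was at 83.1 and 108 CPM in control and had no read in the 3 met libraries, at least 68.2-fold lower than the lower control against a floor of 3 reads per library. In non-met it had 37 and 62 reads in non-met 2 and 3 and none in the other 4 (adjusted p = 0.00455 for met and 0.0121 for non-met against control). *Lox* was at 53.2 and 250 CPM in control, at 21.1 CPM in non-met 1 and at 0 in the other 5 non-met libraries (adjusted p = 0.0118). In met it had 1 read each in met 1 and 3 and 56.9 CPM in met 2. The quasi-likelihood test and limma-trend called neither (adjusted p from 0.471 to 0.944). The summed level of the 19 stromal genes was also highest in control, as given above. Of the 18 tested, 3 were higher in met and 5 higher in non-met than in control. The part of the stromal genes in the oxidase differences was not tested.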

How the data were processed

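The authors aligned paired-end reads from low-input SMART-Seq libraries to mm10 with Rsubread and deposited one table of raw counts per Entrez gene made by featureCounts. One poorly aligned library was left out by them. Strand handling was not given in the sources used here. Here, 25275 of 27179 rows were named from RefSeq and 18 from GENCODE. Rows without a name (1886), for ribosomal RNA (35) and for predicted genes (1794) were left out, which removed 1.94% to 15.7% of counts per library. filterByExpr left 11949 genes. TMM scaling, log2 CPM with a prior count of 2, RPKM and voomLmFit with sample weights were computed with edgeR 4.0.16 and limma 3.58.1 (R 4.3.3), with Benjamini-Hochberg adjustment over all genes and a threshold of 0.05. Alternatives used DESeq2 1.42.0, edgeR's quasi-likelihood test and limma-trend. Single genes were tested by two-sided exact permutation of libraries (Python 3.11.15). Members and gene lists were chosen with earlier results of these data known.

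Met and non-met libraries of one pool come from the same animals by the labels. Deviations of same-pool libraries from their group means correlated at -0.02 to 0.022, and the correlation estimated for the random replicate block was -0.04. Named genes were all members, the other type IV chains, wider-list genes called by voomLmFit, and the 5 genes most like *Col4a1*, plus genes of the sort and marker lists, the keratins and a gene overlapping *Plod3*. Sequences are from RefSeq tables of GRCm38.p6. Columns of the table not matched to a sample numbered 0.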

Additional observations from a re-analysis of the deposited data

How the results depend on the processing

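Met exceeded non-met for both chains under all 13 alternatives to each unweighted difference, but the exact p was below 0.05 in 3 of 13 for *Col4a1* and 4 of 13 for *Col4a2*. Leaving out single libraries gave 0.70 to 0.98 and 0.72 to 1.12. RLE scaling moved the median of all genes from 0.26 to 0.13 and gave 0.69 and 0.74. The number of members called by voomLmFit for met against non-met (2) was 0 by DESeq2, by limma-trend, with RLE size factors and without the low-count filter, 1 without sample weights, and 0 to 2 when single libraries were left out. With mouse pool as a fixed or as a random replicate block it remained 2 (*Col4a1* 0.35 and 0.83, *Col4a2* 0.39 and 0.90). For met against control (2) it was 0 with RLE size factors and 0 to 3 with a library left out. *Plod1* was called there without sample weights, without the low-count filter and without control 2, non-met 2 or non-met 3 (adjusted p from 0.00741 to 0.0444, voomLmFit), and *Pxdn* without control 2 (0.0467). In the fits without sample weights and without the filter *Plod1* stood in place of *Col4a2*, which was no longer called (1.23, adjusted p = 0.0876, and 0.86, adjusted p = 0.73). For non-met against control (1) it was 0 by the quasi-likelihood test, DESeq2, limma-trend and RLE size factors, and 0 to 2 with a library left out. *Col4a1* was called there in 7 of 20 alternatives, in place of *Col4a2* without sample weights, without the filter and with pools summed, and *Pxdn* in 1 (without control 2, adjusted p = 0.025, voomLmFit). Exact tests passed for *Plod3* and *P4ha1* in met against non-met as given above, for *Col4a2* in non-met against control in 3 of 11 alternatives, and for *Loxl2* there in 1 (2.83 without non-met 2, exact p = 0.0476). Chosen after seeing the data were a term for the *Krt8* and *Krt18* library sets, the use of only the 7 libraries with these keratins, the averaging of pools, and leaving out libraries for unweighted differences and for the chain ratio (-0.14 to 0.019 for met against non-met). The keratin term and the keratin libraries alone left 0 members called for met against non-met (0.061 and 0.61 for *Col4a1*, 0.45 and 0.75 for *Col4a2*), and the term 0 for met against control. Among fitted changes of met against non-met, these changed sign: without the low-count filter *Col4a1* (-0.0074), by the quasi-likelihood test *Serpinh1* (0.21) and *Mia3* (-0.20), by DESeq2 *Serpinh1* (0.064), *P4hb* (-0.078) and *Mia3* (-0.35), by limma-trend *Serpinh1* (0.19), with pool as a fixed replicate block *Serpinh1* (0.13) and *P4hb* (-0.052), with the keratin term *P4hb* (-0.18) and *Mia3* (-1.12), in the keratin libraries *P4hb* (-0.23) and *Mia3* (-1.24), and with pools summed *Mia3* (-0.082). Leaving out single libraries gave -0.021 to 1.22 for *Col4a1*, -0.32 to 0.45 for *Serpinh1*, -2.42 to 0.25 for *Loxl2* and -0.18 to 0.76 for *Mia3*. For met against control the sign changed by the quasi-likelihood test for *P4hb* (-0.091), *Pxdn* (0.16) and *Mia3* (0.19), by DESeq2 for *P4hb* (-0.20), *Pxdn* (0.12) and *Mia3* (0.13), by limma-trend for *P4hb* (-0.094) and *Pxdn* (0.18), and with the keratin term for *P4hb* (-1.02), *Plod1* (-0.16) and *Loxl2* (-2.07). Leaving out single libraries gave -0.65 to 0.39 for *Serpinh1*, -0.14 to 0.32 for *P4hb*, -0.52 to 0.47 for *Pxdn*, -1.14 to 1.70 for *Loxl2* and -0.48 to 0.22 for *Mia3*. For non-met against control the sign changed with RLE size factors for *Serpinh1* (0.067) and *Plod3* (0.083), by the quasi-likelihood test for *P4ha1* (0.37), *Plod1* (0.46) and *Mia3* (0.39), by DESeq2 for *P4ha1* (0.49), *Plod1* (0.53) and *Mia3* (0.48), by limma-trend for *P4ha1* (0.060) and *Plod1* (0.31), with pools summed for *Plod1* (0.12) and *Plod3* (0.11), and without sample weights for *Plod3* (0.13). Leaving out single libraries gave -0.077 to 1.28 for *Col4a2*, -0.57 to 0.0084 for *Serpinh1*, -0.73 to 0.24 for *P4ha1*, -0.39 to 0.48 for *Plod1* and -0.49 to 0.12 for *Plod3*. Among unweighted differences of met from non-met the sign changed relative to endothelial genes for *Serpinh1* (-0.30), *P4hb* (-0.22) and *Mia3* (-0.39), in the keratin libraries for *P4hb* (-0.046) and *Mia3* (-0.59), and with RLE for *Mia3* (-0.057), and leaving out libraries gave -0.036 to 0.45 for *Serpinh1* and -0.41 to 0.64 for *Mia3*. For met against control it changed relative to endothelial genes for *Pxdn* (-0.30) and *Loxl2* (-0.31), and leaving out libraries gave -0.46 to 0.057 for *Serpinh1*, -0.32 to 0.14 for *P4hb*, -0.32 to 0.67 for *Pxdn*, -0.80 to 1.51 for *Loxl2* and -0.56 to 0.49 for *Mia3*. For non-met against control it changed with pools averaged for *P4ha1* (-0.11), and leaving out libraries gave -0.38 to 0.52 for *P4ha1*, -0.97 to 0.021 for *Pxdn* and -0.46 to 0.16 for *Mia3*. The cause of these changes was not tested. With 2 control libraries no exact test of met against control can pass, and low counts limit *Loxl2* in met 1 and *P4ha1* in met 2.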
